A study of Mus musculus with 12 samples.

Results

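In the blood of aged mice, 37 of the 8003 genes of the deposited expression table had a higher mean in the *A. muciniphila*-treated (Akk) group than in the control (Ctrl) group, and the other 7966 had a lower one. These 37 genes were chosen by that difference: a gene was taken when its mean FPKM over the 3 Akk blood libraries was above its mean over the 3 Ctrl blood libraries. Their levels and differences in blood are therefore given as a description, with no test. FPKM is a count of fragments corrected for transcript length and for how many fragments the library had mapped. The blood table holds the genes that the study listed as differing between the groups, so the 8003 genes are a selection and not all genes expressed in blood.

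The mice were C57BL/6 and 15 months old in both groups, and each tissue of each mouse gave 1 library, with 3 mice per group and blood and hippocampus from mice of the same label number. The labels describe the Akk group as given a membrane protein of *Akkermansia muciniphila*, a mucus-dwelling gut bacterium, for 8 weeks in one field and for 6 weeks in another, and the Ctrl group as normal. The methods of the study describe gavage with the bacterium itself after antibiotics, and a control gavage of vehicle, also after antibiotics. They state that the mice used for RNA were ones in which the bacterium did not colonize the gut. Libraries were made from mRNA bound to oligo(dT) beads.

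Whole blood RNA is a mixture of transcripts from maturing red cells, platelets, granulocytes, monocytes and lymphocytes. Dividing cells are rare in the circulation. Proteins of division are removed by ubiquitin chains that the anaphase-promoting complex builds on them, and new DNA is packed on freshly made histones. In such a mixture, fewer cells of one type and less RNA per cell cannot be told apart.

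One control library stood apart from the others. Summed over the table, FPKM reached 70846 in Ctrl 1 against 19551 and 10806 in Ctrl 2 and Ctrl 3, and it lay between 10311 and 11427 in the Akk libraries. Ctrl 1 alone held the highest of the 6 values for 7836 genes (97.9%), whereas it was highest for 0 of the 37. Without Ctrl 1, 1455 genes of the table had a higher mean in the Akk group, and the 37 were among them. With each library centred on its median log2 value, 4391 of the 8003 genes were higher in the Akk group. Centring raised the log2 difference of every gene by the same amount. The 37 were therefore bound to be among the 4391, and nothing is read from this. Markers of neutrophils (10 of 10), platelets (6 of 6), NK cells (5 of 5) and monocytes (5 of 5) were listed in the blood table, as were 2 of 5 plasma cell, 2 of 6 T cell, 1 of 6 B cell and 1 of 4 muscle markers, while 0 of 8 red cell, 0 of 4 liver and 0 of 4 skin markers were. Each of the listed markers was lower on average in the Akk group, as were 99.5% of the table. The summed neutrophil markers ranged from 277 to 1404 FPKM in the Ctrl libraries and from 144 to 367 FPKM in the Akk libraries, and the part of cell composition in the results below was not tested.

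**Figure D1:**
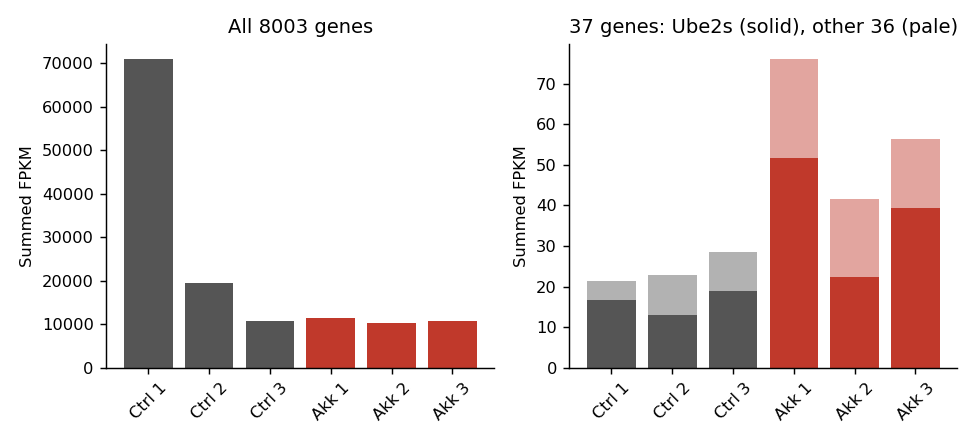
Summed FPKM in each blood library for all 8003 genes (left) and for the 37 genes (right), with Ctrl in grey, Akk in red, and Ube2s as the solid part of each bar at the right. Ctrl 1 is highest at the left, at 70846, whereas the 3 Akk libraries are highest at the right, at 75.97, 41.58 and 56.24 FPKM. The genes at the right were chosen for a higher Akk mean.

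The sum of the 37 genes had a higher mean in the Akk group, as the rule requires, whereas the sum of the table had a lower one. The sum of the 37 was 21.42, 22.74 and 28.47 FPKM in Ctrl 1, 2 and 3 and 75.97, 41.58 and 56.24 FPKM in Akk 1, 2 and 3. Most of this was a single gene, Ube2s, and without it the sums were 4.70, 9.78 and 9.54 FPKM in the Ctrl libraries and 24.20, 19.30 and 16.88 FPKM in the Akk libraries. The groups did not overlap with or without Ube2s, but the same libraries chose the genes, so nothing is read from this.

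The 37 genes were mostly listed at very low levels. Their median mean over the 6 libraries was 0.0867 FPKM, against 0.45 FPKM over the table, and 20 of them (54.1%) were below 0.1 FPKM, against 14.6% of the table. Only 4 reached a mean of 1 FPKM. In all 6 libraries, 11 genes (29.7%) were above 0, against 88.5% of the table. The 3 Ctrl libraries were all listed at 0 for 7 genes, which are also the 7 such genes in the table, as the rule requires of any gene above 0 only in Akk libraries. The number of reads behind these values is unknown, and a value of 0.01 FPKM is the smallest step the files can show.

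Over the 30 genes with a Ctrl mean above 0, the ratio of the Akk to the Ctrl mean had a median of 3.44 and a range of 2.04 to 12.25, and over the whole table the median ratio was 0.329. Differences on the log2(FPKM + 0.1) scale are understated for low genes, and on it the median difference of the 37 genes was 0.64, with a range of 0.09 to 1.94, and that of the table was -0.87. Just inside the rule were Gm44504 at a ratio of 2.04, Ctsf at 2.11, Diaph3 at 2.18, Acmsd at 2.27 and Ube2s at 2.33. Just outside were Slc25a27 at 0.933, Zfp382 at 0.917, Evi5l at 0.837, Bicd1 at 0.769 and Cep97 at 0.75, and no gene of the table lay between 0.933 and 2.04. The methods of the study state that genes were listed by thresholds on fold change and FDR, an entry filter that disfavours small differences. The part of that filter in the empty interval and in the size of the ratios above was not tested, so nothing is read from them. Slc25a27 had means of 0.05 and 0.0467 FPKM in the Ctrl and Akk groups and Zfp382 of 0.04 and 0.0367 FPKM, gaps below the step of 0.01 FPKM, and on log2 means 38 genes were higher in place of 37.

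**Figure D2:**
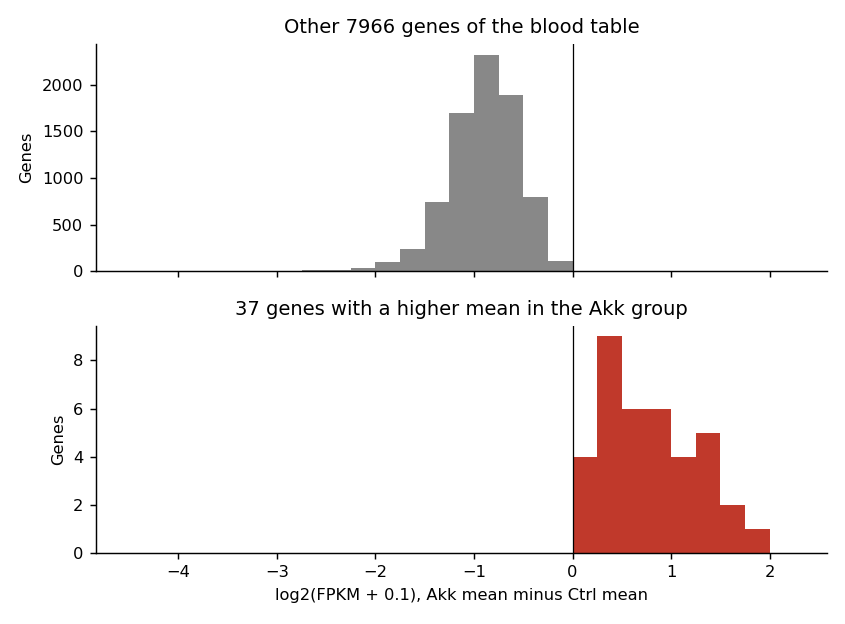
Histograms of the difference between the Akk and the Ctrl mean of log2(FPKM + 0.1), in genes per bin, for the other 7966 genes of the blood table (top) and the 37 genes (bottom), with a vertical line at 0. The bottom panel runs from 0.09 to 1.94 by the rule that chose the genes, and the median of the whole table is -0.87.

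Every Akk library lay above every Ctrl library for 14 of the 37 genes, and these 14 are all such genes in the table (0.175% of 8003), as the rule requires. The reverse order, with the 3 Akk values all under the lowest Ctrl value, was found for 1233 genes of the table. For the other 23 genes the groups overlapped or met. The highest library was Akk 1 for 19 genes, Akk 2 for 9 and Akk 3 for 7, with a tie for 2. The Ctrl libraries were listed at 0 for 16, 17 and 20 of the 37 genes, and the Akk libraries for 2, 4 and 5, an order that the rule favours. Over the whole table, 27, 153 and 274 genes were at 0 in Ctrl 1, 2 and 3 and 335, 497 and 492 in Akk 1, 2 and 3. With limma over the whole table, 0% of genes were higher in the Akk group past a fold change of 1.5 and an adjusted p of 0.05 (Benjamini-Hochberg over 8003 genes), and 0 were lower. The smallest adjusted p of the table in limma was 0.487, and an unadjusted p under 0.05 was reached by 276 genes, 4 of them higher in the Akk group. Centring each library on its median brought 1 gene past both thresholds, Hist2h4, which the same contrast had chosen, so that nothing is read from it.

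**Figure D3:**
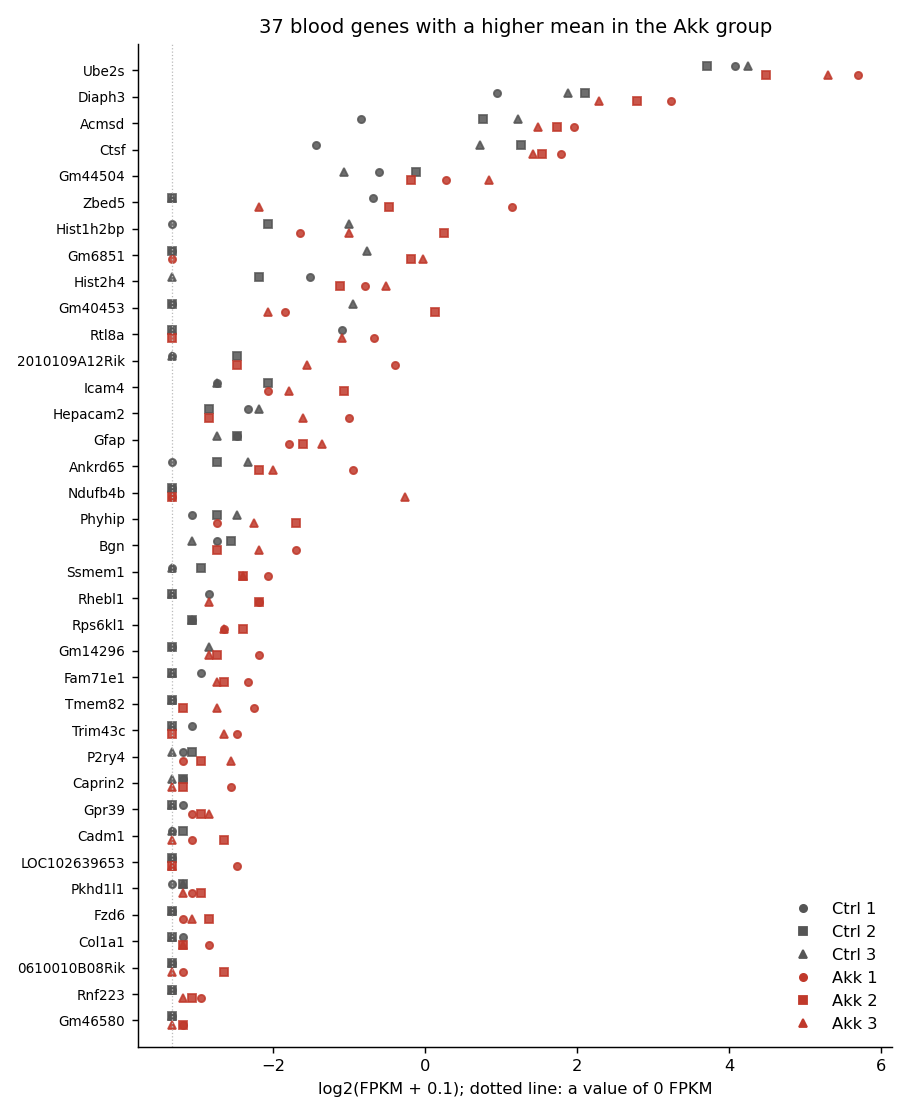
Level of each of the 37 genes on the log2(FPKM + 0.1) axis in the 3 Ctrl (grey) and 3 Akk (red) blood libraries, with a circle, square and triangle for mouse 1, 2 and 3 of a group and genes ordered by their mean. The dotted line marks 0 FPKM, equal values lie on top of each other, and the groups are apart for 14 genes.

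The 2 highest of the 37 genes, Ube2s and Diaph3, were placed in a group of 5 genes of cell division and protein degradation. The means of these 5 over the 6 libraries ran from 0.01 to 27.0 FPKM. The roles that group the 37 genes were set after the values were seen. The other 7966 genes of the table, of any role, had lower means in the Akk group. Ube2s (NCBI gene 77891, chr7:4808014-4812340, minus strand, GRCm38), the ubiquitin-conjugating enzyme that lengthens ubiquitin chains on targets of the anaphase-promoting complex, was at 16.72, 12.96 and 18.93 FPKM among Ctrl mice and 51.77, 22.28 and 39.36 FPKM among Akk mice. The lowest Akk mouse was above the highest Ctrl mouse. The means were 16.2 ± 3.02 and 37.8 ± 14.8 FPKM (SD, n = 3 each), a ratio of 2.33, and without Ctrl 1 the ratio was 2.37. Diaph3 (NCBI gene 56419, chr14:86655357-87141247, minus strand), a formin that builds straight actin filaments and acts in cytokinesis, was at 1.82, 4.19 and 3.58 FPKM among Ctrl mice and 9.30, 6.80 and 4.79 FPKM among Akk mice. The groups were apart, with Ctrl 1 the lowest of the controls, and the ratio was 2.18, or 1.79 without Ctrl 1. For Ube2s and for Diaph3 the gap between the groups was smaller than the range of the controls. Rnf223, a RING finger protein, was listed at 0 in all 3 Ctrl mice and at 0.03, 0.02 and 0.01 FPKM among Akk mice. Hepacam2, an immunoglobulin-family membrane protein, and Trim43c, a tripartite-motif protein, had overlapping groups, with means over the 6 libraries of 0.155 and 0.0267 FPKM.

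The 2 genes of lysosome and metabolism were the only others with a mean of at least 1 FPKM. Acmsd (NCBI gene 266645, chr1:127729413-127767564, plus strand), the decarboxylase that draws the kynurenine pathway of tryptophan away from NAD synthesis, was at 0.46, 1.59 and 2.23 FPKM among Ctrl mice and 3.79, 3.24 and 2.69 FPKM among Akk mice. The means were 1.43 ± 0.896 and 3.24 ± 0.55 FPKM (SD, n = 3 each), a ratio of 2.27. Ctsf (NCBI gene 56464, chr19:4855165-4860918, plus strand), the lysosomal cysteine protease cathepsin F, was at 0.27, 2.31 and 1.55 FPKM among Ctrl mice and 3.35, 2.80 and 2.58 FPKM among Akk mice. The means were 1.38 ± 1.03 and 2.91 ± 0.397 FPKM (SD, n = 3 each), a ratio of 2.11. In both genes the groups were apart and Ctrl 1 was the lowest library, the opposite of its place in most of the table. Without Ctrl 1, the ratio was 1.70 for Acmsd and 1.51 for Ctsf, and in both genes the gap between the groups was smaller than the range of the controls.

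Of the 25 histone genes of the table, 2 were among the 37 and 23 were lower on average in the Akk group, as were 99.5% of the table. Nothing is read from a count of 2. Hist2h4 (NCBI gene 97122, chr3:96262934-96263317, minus strand), a gene of the core histone H4, was at 0.25, 0.12 and 0 FPKM among Ctrl mice and 0.48, 0.36 and 0.60 FPKM among Akk mice. The groups were apart. Its lowest value above 0 was 0.12 FPKM, and its higher values lay within 0.01 FPKM of 2, 3, 4 and 5 times that. Hist1h2bp (NCBI gene 319188, chr13:21787483-21801561, plus strand), a gene of the core histone H2B, was at 0, 0.14 and 0.40 FPKM among Ctrl mice and 0.22, 1.09 and 0.40 FPKM among Akk mice, and these overlapped. Its longest transcript had 12 near-identical copies among other H2B genes, matching at 95% identity or better across 50% or more of it, so reads could have been split among them. Histone messages of dividing cells mostly lack the poly(A) tail that oligo(dT) beads bind, and the part of this in their values was not tested.

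The promoter of Hist1h2bp is shown because it holds 4 copies of CCAAT or its reverse complement ATTGG, the CCAAT box of many histone genes. It is given for the 245 bases before the annotated start of the gene (RefSeq, GRCm38.p6, chr13:21787238-21787482, plus strand), with capitals for the CCAAT box, for the TATA box and for the motif TTTGAA, on either strand.
Hist1h2bp: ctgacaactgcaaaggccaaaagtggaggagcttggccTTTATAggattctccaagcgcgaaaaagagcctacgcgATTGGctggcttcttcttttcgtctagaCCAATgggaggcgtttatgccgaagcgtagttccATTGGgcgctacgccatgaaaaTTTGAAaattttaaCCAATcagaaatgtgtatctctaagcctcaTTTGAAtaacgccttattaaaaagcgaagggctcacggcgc
The bases CCAAT began 141 and 71 bases before the start and ATTGG 169 and 107 bases before it. TTTGAA, the cell-cycle homology region of division genes, began 85 and 41 bases before the start. In the RefSeq windows of 300 bases (250 before and 50 after a transcript start), on either strand, CCAAT was found in 14 of the 25 windows of 24 of the 37 genes (56%) and in 37.4% of all 32851 windows. TTTGAA was found in 8 of 25 (32%) and in 17.9% of all, the GATA motif AGATAA in 5 of 25 (20%) and 11.2%, and the TATA box TATAAA in 3 of 25 (12%) and 13.6%. The windows of LOC102639653 and 0610010B08Rik share 145 identical bases that hold CCAAT and TTTGAA as reverse complements. Both windows are counted for each of these motifs. A match is a description of the letters and not a bound site.

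Genes known from nervous tissue were listed at low levels. Gfap (NCBI gene 14580, chr11:102887336-102897200, minus strand), the intermediate filament of astrocytes, was at 0.08, 0.08 and 0.05 FPKM among Ctrl blood and 0.19, 0.23 and 0.29 FPKM among Akk blood. The groups were apart, at means of 0.07 ± 0.0173 and 0.237 ± 0.0503 FPKM (SD, n = 3 each) and a ratio of 3.38. Phyhip, which is expressed mainly in brain, overlapped, at 0.02, 0.05 and 0.08 FPKM among Ctrl mice and 0.05, 0.21 and 0.11 FPKM among Akk mice.

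The 6 genes of receptors and signalling had means over the 6 libraries between 0.0117 and 0.0533 FPKM, and the groups were apart for 3 of them. Rps6kl1, a kinase-like relative of the ribosomal S6 kinases, was at 0.02 FPKM in each Ctrl mouse and at 0.06, 0.09 and 0.06 FPKM among Akk mice. Gpr39, a zinc-sensing G protein-coupled receptor, was at 0.01, 0 and 0 FPKM among Ctrl mice and 0.02, 0.03 and 0.04 FPKM among Akk mice. Fzd6, a Wnt receptor of the frizzled family, was listed at 0 among Ctrl mice and 0.01, 0.04 and 0.02 FPKM among Akk mice. These differences were a few steps of 0.01 FPKM. The groups overlapped for Rhebl1, a Rheb-like GTPase, P2ry4, a nucleotide receptor, and Caprin2, an RNA-binding protein that also acts in Wnt signalling. For Caprin2 the difference depended on Akk 1, at 0.07 FPKM, and the log2 difference was -0.02 without it.

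The 4 genes of adhesion and matrix all overlapped. Icam4, the Landsteiner-Wiener adhesion molecule of red cells, was at 0.05, 0.14 and 0.05 FPKM among Ctrl mice and 0.14, 0.38 and 0.19 FPKM among Akk mice, so that Akk 1 met Ctrl 2. Bgn, the matrix proteoglycan biglycan, Cadm1, a cell adhesion molecule, and Col1a1, a chain of type I collagen, had means over the 6 libraries of 0.0867, 0.015 and 0.0117 FPKM. Of a list of 43 red cell genes, 10 were in the table and all 10 were lower on average in the Akk group, as were 99.5% of the table.

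Both genes derived from mobile elements overlapped. Zbed5, whose coding sequence comes from a DNA transposon, was at 0.52, 0 and 0 FPKM among Ctrl mice and 2.12, 0.62 and 0.12 FPKM among Akk mice, and had the highest log2 difference of the 37, at 1.94. Rtl8a, a retrotransposon Gag-like gene on the X chromosome, had a mean of 0.212 FPKM over the 6 libraries and 1 near-identical copy, Rtl8b.

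Of the 8 little characterised genes, the groups were apart for 4. Ankrd65, an ankyrin repeat gene, was at 0, 0.05 and 0.10 FPKM among Ctrl mice and 0.42, 0.12 and 0.15 FPKM among Akk mice. Ssmem1 was at 0, 0.03 and 0 FPKM among Ctrl mice and 0.14, 0.09 and 0.09 FPKM among Akk mice. Fam71e1 was at 0.03, 0 and 0 FPKM among Ctrl mice and 0.10, 0.06 and 0.05 FPKM among Akk mice, and its span overlaps Emc10 and Mybpc2. Tmem82 was listed at 0 among Ctrl mice and 0.11, 0.01 and 0.05 FPKM among Akk mice. The remaining 4 overlapped, namely 2010109A12Rik, Gm40453, Pkhd1l1 and Gm46580, and Gm46580 was the lowest of the 37 at a mean of 0.00333 FPKM.

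Gene copies and read-through loci were a further group. Gm44504 (NCBI gene 100169864, chrX:74367447-74373349) spans parts of Ubl4a and Slc10a3 and was at 0.56, 0.82 and 0.38 FPKM among Ctrl mice and 1.11, 0.78 and 1.70 FPKM among Akk mice, which overlapped. Slc10a3 itself was at 1.27, 0.22 and 0.39 FPKM among Ctrl mice and 0.33, 0.07 and 0.07 FPKM among Akk mice, so the overlapping loci differed in the opposite direction, and how the fragments were divided between them is not known. Gm6851, the single pseudogene, was listed at 0 in 2 Ctrl mice and in 1 Akk mouse. Ndufb4b, a copy of a subunit gene of mitochondrial complex I, lies within Dock8 and was above 0 in 1 library only, at 0.73 FPKM in Akk 3.

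Closely placed zinc finger loci on chromosome 2 completed the 37. LOC102639653 (RefSeq Gm2007), 0610010B08Rik (RefSeq Gm2026) and Gm14296 lie within 1.19 Mb (chr2:175737837-176927813), a window with 25 RefSeq genes, of which 8 are in the blood table. LOC102639653 was above 0 in 1 blood library only, at 0.08 FPKM in Akk 1. 0610010B08Rik was at 0.01, 0.06 and 0 FPKM among Akk mice, and both genes were listed at 0 among Ctrl mice. Gm14296 was at 0, 0 and 0.04 FPKM among Ctrl mice and 0.12, 0.05 and 0.04 FPKM among Akk mice. The other 5 genes of the window were lower in mean in the Akk group, as were 99.5% of the table, with values of 0.91 FPKM or below. The 213 bases before the gene start of LOC102639653 (RefSeq, GRCm38.p6, chr2:175737624-175737836, plus strand) are shown because the last 145 of them, in capitals, are the same as the 145 bases before the gene start of 0610010B08Rik (chr2:175965105-175965249, plus strand).
LOC102639653: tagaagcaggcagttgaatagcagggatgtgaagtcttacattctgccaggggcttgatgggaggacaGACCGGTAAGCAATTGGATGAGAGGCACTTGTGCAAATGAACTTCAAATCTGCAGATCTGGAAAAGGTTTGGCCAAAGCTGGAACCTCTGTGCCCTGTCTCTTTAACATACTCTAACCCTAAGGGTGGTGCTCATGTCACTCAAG
LOC102639653 also had 9 near-identical copies by transcript. Of the 32 of the 37 genes with a matched transcript, 4 (12.5%) had near-identical copies, against 251 of 7877 other genes (3.19%), and a gene whose copies share reads has an uncertain value. Of the 36 genes placed on the genome, 4 (11.1%) lay on the X chromosome, against 2.95% of the table. Chromosome 7 also held 4 (11.1%), against 7.33% of the table, and nothing is read from counts this small.

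In the hippocampus, a tissue the choice of the genes did not use, 2 of the 37 were listed in the table of 284 genes used here. The other 35 were not analysed in the hippocampus, so nothing is read from their absence. This table also holds genes the study listed as differing, but fewer than the paper reports for the hippocampus. The tissues were normalized separately. 2010109A12Rik was at 0, 0.08 and 0 FPKM among Ctrl blood and 0.66, 0.08 and 0.24 FPKM among Akk blood. In the hippocampus it was at 0.40, 0.14 and 0.50 FPKM among Ctrl mice and 0, 0.38 and 0 FPKM among Akk mice, which overlapped. The log2 difference there was -1.30 (SE 0.76), with an adjusted p of 0.610 in limma (Benjamini-Hochberg over 284 genes). LOC102639653 was at 10.45, 4.56 and 5.06 FPKM among Ctrl hippocampus and 14.47, 2.54 and 0 FPKM among Akk hippocampus. Its Akk values lay on both sides of the Ctrl values, and the log2 difference was -2.01 (SE 1.83), with an adjusted p of 0.790 in limma. Without Akk 3 this difference was -0.03. Gm14434 is one of its near-identical copies in the same window. It was at 0, 0.02 and 0 FPKM among Ctrl hippocampus libraries and 8.11, 4.31 and 5.90 FPKM among Akk ones, and limma called it higher. The study had listed it by the same contrast, so nothing is read from that call. In blood Gm14434 was at 0, 0.11 and 0.01 FPKM among Ctrl mice and 0.04, 0 and 0 FPKM among Akk mice. It is named after its values were seen, and how reads were divided between the copies is not known. Neither gene passed the thresholds, which 3 of the 284 genes did (1.06%). That count was between 0 and 5 in the other settings run, and neither of the 2 genes was called in any of them.

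**Figure D4:**
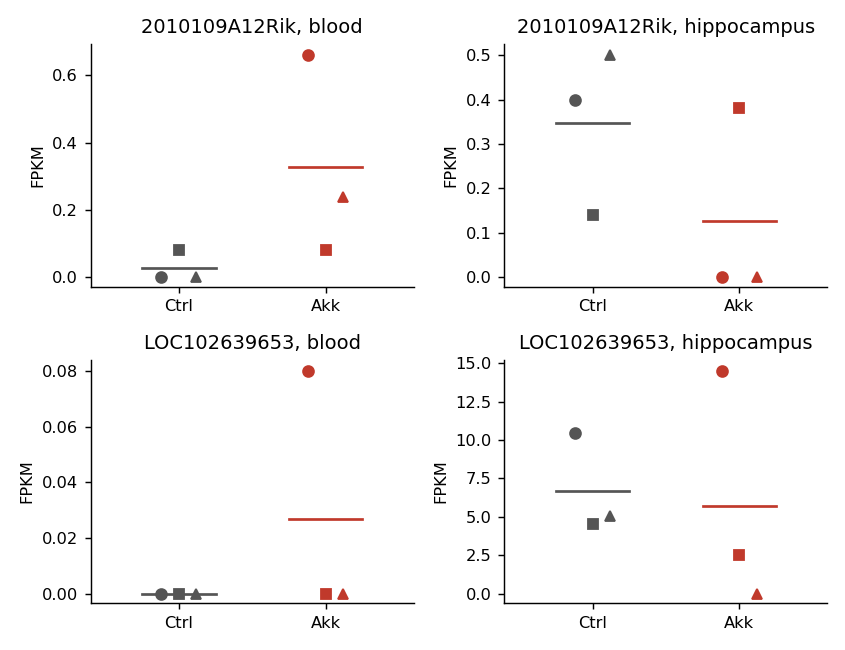
FPKM of 2010109A12Rik (top) and LOC102639653 (bottom) in blood (left) and hippocampus (right), with 1 point per mouse (circle, square and triangle for mouse 1, 2 and 3 of a group) and a line at the mean of each group. In the hippocampus the Ctrl and Akk points overlap for both genes, and the vertical scales differ between panels.

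None of the 37 genes was in the lists of red cell, B cell, plasma cell, neutrophil granule, interferon, platelet, T and NK cell, or muscle, liver and skin genes, and the 74 genes of these lists that the table holds were all lower on average in the Akk group, beside 99.5% of the table. Without Ctrl 1, 72 of the 74 were lower, beside 80.7% of the table, and with each library centred on its median 66 were, beside 45.1%. These were 14 platelet, 16 interferon, 15 neutrophil granule, 13 T and NK cell, 10 red cell, 3 B cell, 2 plasma cell and 1 muscle, liver or skin gene. The medians of their log2 differences lay between -2.15 for the interferon genes and -0.83, against -0.87 over the table.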

How the data were processed

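RNA of 12 libraries, 6 of blood and 6 of hippocampus from 3 Ctrl and 3 Akk mice, was sequenced on the BGISEQ-500. The authors deposited FPKM per gene and library, rounded to 2 decimals, in 1 table per tissue, and each table holds genes the study listed as differing. The paper names HISAT2, Bowtie2 and RSEM, whereas the submitters' processing notes name TopHat2, Cufflinks and GRCm38. Whether counting used strand is not given in the sources used here. Depth is unknown, so no counting interval is given and precision rests on 3 mice per group.

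From the deposited FPKM, group means, ratios and log2(FPKM + 0.1) were computed. Within each tissue, limma 3.58.1 (R 4.3.3) compared Akk with Ctrl using a variance trend on intensity, unscaled libraries and Benjamini-Hochberg adjustment over the table. A gene passed when its fold change reached 1.5 and its adjusted p was 0.05 or lower. The fit was tested on simulated data with independent noise of the spread of the Akk libraries. These data had no library that stood apart, so the test does not cover one like Ctrl 1. Copies were searched with blastn 2.17.0 in GENCODE transcripts, and positions and promoters came from RefSeq (GRCm38.p6). Python 3.11.15, pandas 2.3.3, numpy 2.4.6 and matplotlib 3.10.9 were also used. The genes and lists were chosen with earlier results of these data known, and the roles, motifs and gene families after the values were seen. Every gene is named, with values per library for those with a mean of at least 1 FPKM, those whose groups are apart and those in the hippocampus table, and for some others chosen after their values were seen. The alternatives were pseudocounts of 1 and 0.01, a mean FPKM of at least 1, group medians or log2 means, centring, quantile normalization, no trend, the replicate number as a block, and each library left out. Nothing in the labels says that replicates were other than separate mice.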

Additional observations from a re-analysis of the deposited data

How the results depend on the processing

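The count of genes with a higher Akk mean was 37 and rested on the scale and on Ctrl 1. It was 38 on log2 means, 393 on group medians, 4 among genes with a mean of at least 1 FPKM, 4391 when libraries were centred on their medians and 4431 with quantile normalization. It ranged from 35 to 1455 when 1 library was left out, with 1455 without Ctrl 1, and was 4129 with centring and without Ctrl 1, a setting added after the data were seen. Of the 37, 34 stayed higher on medians, where Caprin2, LOC102639653 and Ndufb4b did not, 35 without Akk 1, 36 without Akk 3, and all 37 in the other settings that kept them. Centring raised every log2 difference by the same amount, so it could not remove any of the 37. Genes whose groups were apart numbered 14, and 4 with a mean of at least 1 FPKM, 321 with centring, 396 with quantile normalization, and 17 to 77 with 1 library left out. The median log2 difference of 0.64 was 0.11 with a pseudocount of 1, 1.53 with 0.01, 1.25 for the 4 genes with a mean of at least 1 FPKM, 1.55 with centring, 1.18 with quantile normalization and 0.95 with centring and without Ctrl 1, and 0.54 to 0.70 with 1 library left out. Genes past the thresholds of limma in blood were 0 higher and 0 lower, with 1 higher under centring with or without Ctrl 1. Lower genes were 4 with a pseudocount of 0.01, 1 with the replicate block and 1 with centring and without Ctrl 1, and 0 to 23 with 1 library left out (23 without Ctrl 3). The replicate numbers mark different mice in the 2 groups and did not pair them (correlations of same-numbered libraries in blood of 0.036, -0.011 and -0.096), so the replicate block is given as an alternative only. In the hippocampus, log2 differences stayed negative, at -3.22 to -0.26 for 2010109A12Rik and -3.62 to -0.03 for LOC102639653, with adjusted p from 0.274 to 0.911 and from 0.520 to 1 in limma, and at -1.30 and -2.01 with the replicate block. Genes past the thresholds in the hippocampus numbered 3, and 0 with the replicate block, 5 with a pseudocount of 0.01, 2 without the trend, 1 with a pseudocount of 1, a mean of at least 1 FPKM, centring (with or without Ctrl 1) or quantile normalization, and 1 to 4 with 1 library left out (1 without Akk 2 or Akk 3). Leaving out a library can only keep or raise the count of genes whose groups are apart. Centring moves the median log2 difference by the same amount as every gene. The cause of the other changes was not tested. Low values, unknown depth and 3 mice per group limit every result.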
